A study of Homo sapiens with 2 samples.

Results

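Nucleolar ribosome biogenesis factors are the proteins that make ribosomes rather than forming part of them. They were described here as a list of 49 genes, of which 42 had at least 1 probe set assigned to that gene alone, out of 19775 genes with such a probe set. All 42 lay above the level threshold of 4.865, the median log2 intensity of the non-control probe sets. NOP56, DKC1, BOP1 and PPAN were read only by probe sets that the annotation shares with other genes, and EBNA1BP2, GNL3 and DDX18 were not paired with a probe set there, so these 7 were not analysed here. The RNA came from the ALCL cell line SU-DHL-1, an established line derived from an anaplastic large cell lymphoma and carrying the fusion NPM1-ALK. The cells were electroporated with 80 pmol of either a negative control siRNA (siCTR) or an siRNA targeting HLX, a homeobox gene of the NKL subclass (siHLX), and harvested 20 h later. Each siRNA was represented by 1 Affymetrix HG-U133 Plus 2.0 array, so there was no replicate error, no test between the siRNAs, and the number of arrays limits the precision.

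Ribosomes are built in the nucleolus. RNA polymerase I transcribes the long precursor of most rRNAs and RNA polymerase III the 5S rRNA. Small nucleolar ribonucleoproteins (snoRNPs) guide the modification of the precursor, box C/D particles by methylation and box H/ACA particles by conversion of uridine to pseudouridine. The small-subunit processome, built around the U3 snoRNP, prepares the 40S subunit, and a separate chain of assembly factors, helicases and GTPases matures the 60S subunit. Genes of this system are expressed strongly in growing cells, and many are known targets of MYC, which binds the E-box CACGTG together with MAX.

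HLX, the target of the siRNA, read 8.15 on the siCTR and 7.70 on the siHLX array on its only probe set. The deposited values were quantile normalised, and every difference below is log2 siHLX minus siCTR, and takes the bulk of probe sets as its reference. The poly-A controls, spiked into the RNA before labelling, were lower on the siHLX array by a mean of -0.29 (SD 0.18, 24 probe sets), whereas the hybridisation controls, added after labelling, differed by -0.03 (SD 0.08, 18 probe sets). All 9 ALCL markers with a probe set of their own lay above the level threshold, with TNFRSF8, which encodes CD30, at 9.92 and 9.79 and ALK at 12.47 and 12.45. Markers of B cells, myeloid cells, erythroid cells and stroma or epithelium reached at most 7.53, and 2 of 4, 2 of 5, 2 of 2 and 2 of 5 of them lay above the threshold. Their differences ran from -0.51 to 0.24 in B cell, from -1.06 to 0.66 in myeloid, from -0.50 to -0.23 in erythroid and from -0.31 to -0.03 in stromal or epithelial markers. All erythroid and stromal or epithelial markers were thus lower, as most factors were. Several of these lay near or below the threshold, with ALAS2 and KRT8 at a mean of 5.155, COL3A1 at 3.425 and EPCAM at 3.025, so their direction is uncertain. Of 4 T cell receptor genes 3 lay above the threshold, with CD3D at 10.73 and 10.98 and CD247 at 5.54 and 4.92. Their part in the results below was not tested.

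The factors lay slightly lower on the siHLX array relative to the bulk of genes, with small differences throughout. The list and its grouping were chosen with earlier results of these data known. Comparisons of the factors or their groups with all genes are therefore not independent of that choice. Of the 42 genes, 30 were lower and 12 higher, and their median was -0.08 (quartiles -0.13 and 0.03); once the arrays were scaled to equal poly-A controls the median turned to 0.21. The median of all 12135 genes above the threshold went with that scaling from -0.01 to 0.28, so the median of the factors relative to all genes was -0.07 on both scales. Of all genes above the threshold, 50.1% were lower, and of the 5742 genes at a mean level of 8 or more 50.8% were. At that level lay 40 of the 42 factors, and 30 of these 40 (75%) were lower. Higher readings were given by 47.4% of all genes above the threshold and by 46.3% of those at a level of 8 or more, compared with 12 of the 42 and 10 of the 40 factors. No factor reached a 2-fold difference, as 0.841% of all genes above the threshold and 0.0174% of those at a level of 8 or more did. In RNA of whole cultures, a lower reading of these transcripts in each cell and a smaller share of growing cells cannot be told apart.

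A smaller step of 0.2 log2 units (1.15-fold) was passed downward by 7 factors, namely POLR1C, NOP14, NOP16, POLR1E, UTP3, WDR43 and MYBBP1A, and upward by 0. Without probe sets of the suffix _s_at or _x_at NOP16 no longer passed it, at -0.03, and NOP14, read by such a probe set alone, had no value. Among all genes above the threshold 18.5% were lower by this step and 17.5% higher, so the 16.7% of factors that were lower lay near the background. Dim genes vary more between the arrays, and among genes at a level of 8 or more 9.51% were lower and 8.19% higher by the step. All 7 factors belonged to the 40 at that level, a share of 17.5%. With a step of 0.1 the counts were 18 lower and 3 higher, against 32.3% and 30.3% of all genes above the threshold and 25.8% and 22.3% of those at a level of 8 or more.

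**Figure D1:**
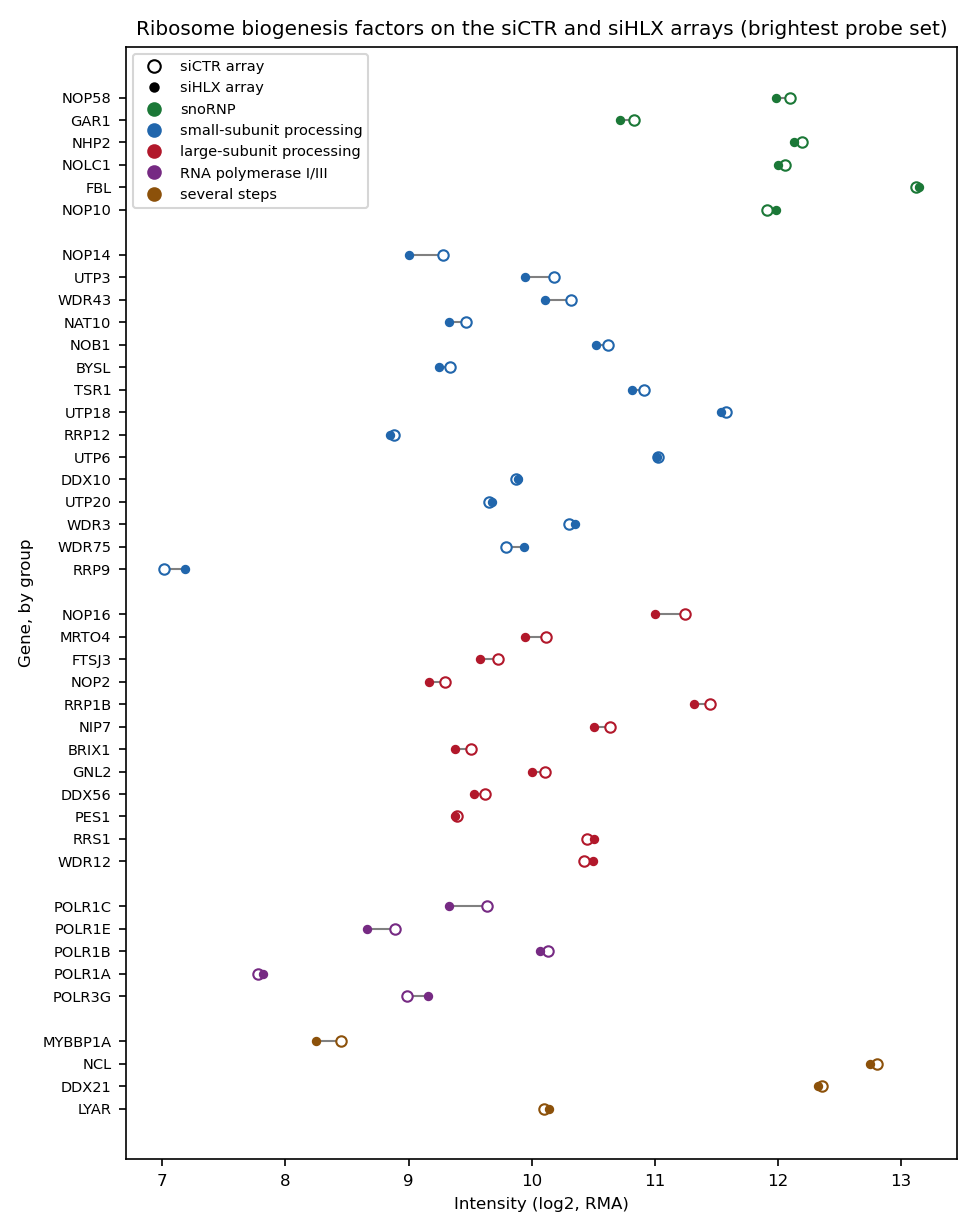
Log2 RMA intensity (x axis) of the brightest probe set of 42 ribosome biogenesis factors (y axis, ordered by difference within each group), with open circles for the siCTR array and filled circles for the siHLX array. The circles of a gene lie at most 0.31 apart, and in 30 of 42 genes the filled circle lies to the left, taking the bulk of genes as reference. With equal poly-A controls it would be 1 of 42, a scaling that takes the median of all genes to 0.28. Levels of different genes come from different probes and are not comparable.

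The snoRNP genes held the narrowest range, from -0.11 to 0.08. In the box C/D particle, FBL, the methyltransferase fibrillarin, read 13.12 on the siCTR and 13.15 on the siHLX array, a difference of 0.03. NOP58, a scaffold of the same particle, read 12.10 and 11.99, a difference of -0.11. The enzyme and its scaffold thus lay on different sides of 0. Among the proteins of the box H/ACA particle, GAR1 read 10.83 and 10.72 (-0.11), and NHP2 12.20 and 12.13 (-0.07). NOP10, the smallest protein of that particle, read 11.91 and 11.99, a difference of 0.08. NOLC1, a chaperone that binds both kinds of snoRNP, gave -0.06 on its brightest probe set and -0.21 and -0.18 on the others, so all 3 readings were lower. Over the 6 snoRNP genes the median was -0.07, with 4 lower and 2 higher, and 0.22 at equal poly-A controls.

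The median of the small-subunit group was -0.04, 0.25 at equal poly-A controls and -0.01 without probe sets of the suffix _s_at or _x_at. This group held 15 genes, all of them measured, 10 lower and 5 higher. It had the lowest and the highest differences of processing factors side by side. NOP14, a component of the small-subunit processome, read 9.28 on the siCTR and 9.00 on the siHLX array, a difference of -0.28. UTP3, another processome component, read 10.18 and 9.95 (-0.23). WDR43, which also takes part in transcription of the rRNA precursor, read 10.32 and 10.11 (-0.21). These 3 genes had 1 probe set each, so no second reading bears on them.

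In the other direction, RRP9, a protein specific to the U3 snoRNP, read 7.01 on the siCTR and 7.18 on the siHLX array, a difference of 0.17. WDR75, which like WDR43 links transcription and processing of the precursor, read 9.79 and 9.94 (0.15). WDR43 and WDR75 therefore lay on opposite sides of 0. Among subunits of the UTP-B complex of the processome, WDR3 had 0.05, UTP6 -0.01 and UTP18 -0.04 (0.12 by a dimmer probe set). Further subunits of this complex, which are not on the list of factors, had -0.20 (WDR36), 0.08 (PWP2, with -0.14 and -0.52 on dimmer probe sets) and 0.28 (TBL3, with -0.89 on a dimmer one), so the complex had no common direction. It was singled out after its values had been seen.

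Other factors of the list act on 18S rRNA and the pre-40S particle. NAT10, the acetyltransferase of 18S rRNA, read 9.47 on the siCTR and 9.33 on the siHLX array, a difference of -0.14. NOB1, the endonuclease that trims the 3′ end of 18S rRNA, read 10.62 and 10.52 (-0.10). BYSL, which accompanies the pre-40S particle, read 9.34 and 9.25 (-0.09). TSR1, a late pre-40S factor, gave -0.09, -0.10, -0.30 and 0.00 on its 4 probe sets, a mean of -0.12 (SD 0.13), so 3 readings were lower and none was higher. The helicase gene DDX10 had 0.02, UTP20 0.03 and RRP12 -0.03, with 0.08 on a dimmer probe set. Outside the list, the late pre-40S kinase genes RIOK1 and RIOK2 had 0.16 and 0.15, with -0.07 on a dimmer probe set of RIOK2. BUD23, needed for methylation of 18S rRNA, had 0.00.

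The large-subunit group had the lowest median, -0.13 over 12 measured genes of 17, with 10 lower and 2 higher. Scaled to equal poly-A controls the median was 0.16. Without probe sets of the suffix _s_at or _x_at it was -0.09, and no longer the lowest. NOP16, an assembly factor of the 60S subunit, read 11.25 on the siCTR and 11.00 on the siHLX array on its brightest probe set, a difference of -0.25. Its other probe sets gave -0.03, -0.08 and -0.34, so all 4 were lower, although they spanned 0.31. MRTO4, a placeholder for the ribosomal stalk protein, read 10.12 and 9.95 (-0.17) and -0.05 on a second probe set. Both readings had the same sign.

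Most of the other large-subunit factors lay in a narrow range below 0. FTSJ3, an RNA methyltransferase of the pre-60S particle, read 9.73 and 9.58 (-0.15), and NOP2, a methyltransferase of 28S rRNA, 9.30 and 9.17 (-0.13). BRIX1, which helps to build the 5S ribonucleoprotein into the subunit, read 9.51 and 9.38 (-0.13), and the GTPase gene GNL2 10.11 and 10.00 (-0.11). NIP7, a small processing factor, was lower on both probe sets, at -0.13 and -0.16 (mean -0.15, SD 0.02), 1 of the closest pairs of readings in the list. RRP1B, a nucleolar protein related to yeast Rrp1, was lower on both too, but its readings of -0.13 and -0.45 were far apart.

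The remaining factors lay nearer to 0 or had readings of both signs. PES1, BOP1 and WDR12 form PeBoW, which is required for maturation of 28S rRNA. PES1 read 9.39 on the siCTR and 9.38 on the siHLX array, a difference of -0.01. WDR12 read 10.43 and 10.50 (0.07) on its brightest probe set, the highest value of the group, whereas its dimmer probe sets gave -0.35 and -0.08. Its direction was therefore not settled. RRS1, which works with BRIX1 in recruiting the 5S ribonucleoprotein, read 10.45 and 10.51 (0.06). For the helicase gene DDX56 the brighter probe set gave -0.09 and the dimmer 0.23, so its readings had opposite signs.

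Subunits of RNA polymerases I and III differed most among themselves, from -0.31 to 0.17. POLR1C, shared by both polymerases, had the lowest difference among the brightest probe sets of the factors, with 9.64 on the siCTR and 9.33 on the siHLX array (-0.31, or 0.81 times the control level); dimmer probe sets of RRP1B, NCL, WDR12, NOP16 and POLR1A were lower still. Its second probe set gave -0.16 (mean -0.24, SD 0.11). POLR1E, specific to polymerase I, read 8.89 and 8.66 (-0.23), and a dimmer one gave -0.28 (mean -0.26, SD 0.04). A probe set of POLR1E below the threshold read 0.37. Both genes were thus lower on each of their brighter readings.

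POLR3G, a polymerase III subunit known from stem cells and tumours, had, together with RRP9, the highest difference among the brightest probe sets. It read 8.99 on the siCTR and 9.16 on the siHLX array, a difference of 0.17, and 0.17 on its second probe set, so it was higher on both. The catalytic subunits of polymerase I gave no common direction. POLR1A, the largest subunit, had 0.04 on its brightest probe set but -0.23 and -0.34 on the others, and POLR1B had -0.06, 0.12, 0.07 and -0.18. The median of the 5 genes was -0.06, or 0.23 at equal poly-A controls, and without probe sets of the suffix _s_at or _x_at, which can match more than 1 transcript, it was -0.18.

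A last group takes part in several steps. MYBBP1A, a nucleolar corepressor that also acts in rRNA synthesis, read 8.45 on the siCTR and 8.25 on the siHLX array (-0.20) and -0.15 on its second probe set (mean -0.18, SD 0.04). NCL, the abundant nucleolar protein nucleolin, read 12.81 and 12.75 (-0.06) on its brightest probe set and -0.35 on a dim one. Both were lower on each reading, with a wide gap for NCL. The helicase gene DDX21 had -0.03 and 0.01, and LYAR, a nucleolar growth regulator, 0.04 and -0.01, so neither had a direction. The median of the 4 genes was -0.05, 0.24 at equal poly-A controls and -0.20 without probe sets of the suffix _s_at or _x_at.

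Repeat readings by several probe sets were used as a technical check. Among 19 factors read by 2 or more probe sets above the threshold, 9 were lower on all of them, namely NOLC1, NOP16, RRP1B, NIP7, MRTO4, POLR1C, POLR1E, NCL and MYBBP1A. Only POLR3G was higher on all, and 9 had mixed signs or a reading of 0. Among all 5869 genes with at least 2 such probe sets, 19.3% were lower on all and 17.7% higher on all. The SD between probe sets of a factor, pooled over the 19, was 0.14, compared with 0.27 over all genes, and it exceeded the difference of most factors. The values over all genes in this paragraph were not matched for level, and most factors are bright. The 28 dimmer probe sets above the threshold belong to genes already read by a brighter probe set. They had a median of -0.13, with 20 lower, 7 higher and 1 at exactly 0. Of all 10318 such dimmer probe sets 49.7% were lower and 47.5% higher, with a median of 0.00. The 9 probe sets below the threshold went both ways, 4 lower, 4 higher and 1 at exactly 0, between -0.70 for UTP6 and 0.37 for POLR1E. Probe sets of a gene share the RNA of the same arrays, so their agreement says nothing about another culture.

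**Figure D2:**
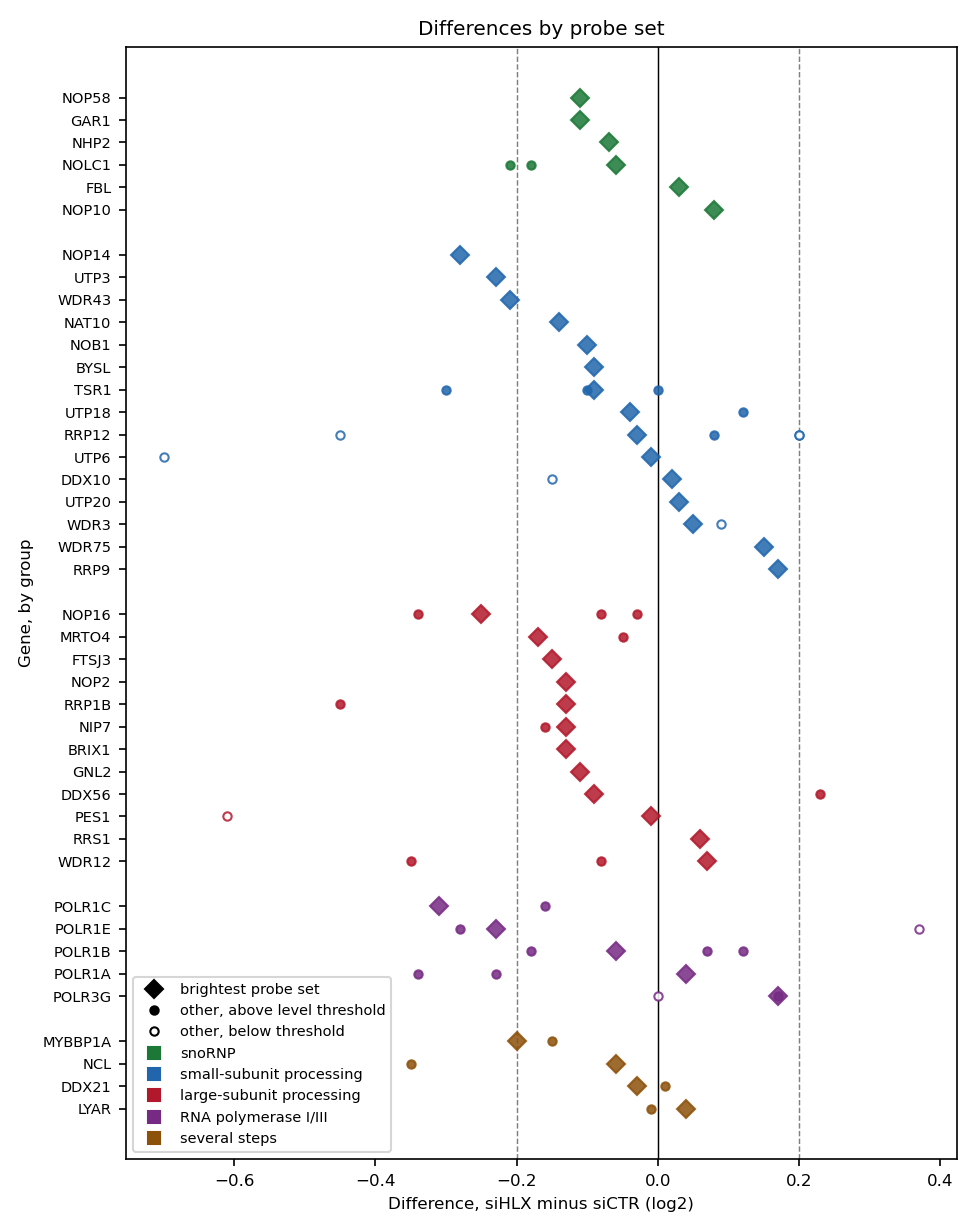
Log2 difference, siHLX minus siCTR (x axis), of every probe set of 42 ribosome biogenesis factors (y axis, by group); diamonds are the brightest probe sets, filled circles others above the level threshold, open circles those below it, and dashed lines mark 0.2. All 4 readings of NOP16 lie left of 0 and both upper readings of POLR3G coincide at 0.17, relative to the bulk of genes; scaling to equal poly-A controls would move all points to the right by 0.29.

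Further genes of the same machinery were read in the same way. Their list of 130 was written from their known roles, but with earlier results of these data known. It is therefore no independent check of the factors. Of 126 above the threshold, 88 were lower, 36 higher and 2 at exactly 0, with a median of -0.05, or 0.24 at equal poly-A controls. By the step of 0.2, 18 were lower (14.3%) and 3 higher (2.38%), where 18.5% and 17.5% of all genes above the threshold and 9.51% and 8.19% of those at a level of 8 or more were. The medians were -0.06 for 12 snoRNP and related genes, -0.04 for 43 small-subunit genes, -0.06 for 45 large-subunit genes and -0.06 for 24 genes of RNA polymerases I and III. The large-subunit median of -0.13 among the 12 factors stood beside -0.06 for the other large-subunit genes, and this gap could not be tested with 1 array per siRNA.

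NAF1, an assembly factor of box H/ACA particles, read 9.30 on the siCTR and 8.88 on the siHLX array (-0.42). Its single probe set has the suffix _x_at. RPP40, a subunit of RNase P and RNase MRP, had -0.19, and PIH1D1 and RUVBL1, of the assembly machinery for box C/D particles, had 0.06 and 0.01. FCF1, a processome component, was lower on all 3 probe sets, at -0.34, -0.27 and -0.55, and NOC4L had -0.26. The highest of these small-subunit genes were TBL3, described above, and ESF1 at 0.22, with -0.05 on its other. In the large-subunit list PELP1 had -0.41 by an _s_at probe set alone. DDX54 had -0.36 (0.00 and 0.54 on dimmer probe sets), CEBPZ 0.17 and NOL12 0.24 (0.44 on a dimmer probe set).

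Among the polymerase genes, the initiation factor gene BRF1 had -0.44, although its other probe sets above the threshold read 0.38 and 0.31. The polymerase III subunit genes POLR3D, read by an _s_at probe set alone, and POLR3F both had -0.32. In contrast, POLR3B had 0.14, and POLR3C had 0.09 with -0.16 on a dimmer probe set. POLR3GL, the gene related to POLR3G, had 0.05. NPM1, the nucleolar chaperone whose gene is also part of the fusion in these cells, read 13.60 and 13.63 (0.03), with 0.09 and 0.11 on its other probe sets, and NOL8 had -0.20. Whether these probe sets also read the fusion transcript was not examined.

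Ribosomal proteins are the building blocks that these factors assemble. Of 79 genes listed, 53 had a probe set of their own and lay above the threshold. Of these, 15 were lower (28.3%), 34 higher and 4 at exactly 0. Among all genes at a level of 8 or more, 50.8% were lower and 46.3% higher. The median of the 53 was 0.02 (0.31 at equal poly-A controls), and -0.04 without probe sets of the suffix _s_at or _x_at. Their median level was 13.63, compared with 10.08 for the factors, so they were not matched for level. The direction of the ribosomal proteins was therefore open to the choice of probe set, whereas the median of the factors without these probe sets was -0.09.

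**Figure D3:**
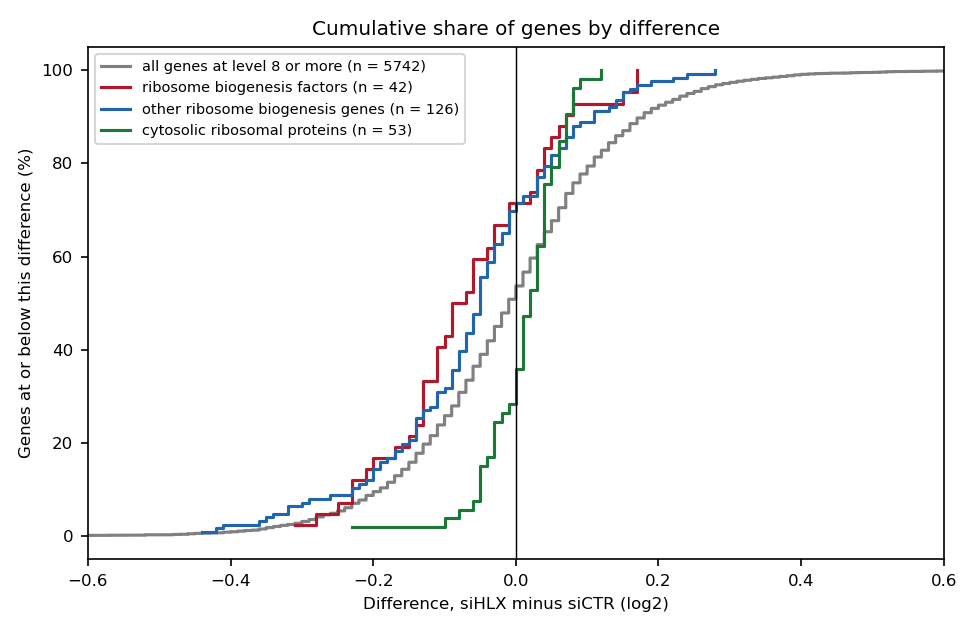
Cumulative share of genes (y axis, percent) at or below a given log2 difference, siHLX minus siCTR (x axis), for 42 ribosome biogenesis factors, 126 other ribosome biogenesis genes, 53 cytosolic ribosomal protein genes and the 5742 genes at a level of 8 or more. The curves of the factors (median -0.08) and of the other biogenesis genes (-0.05) lie left of the ribosomal proteins (0.02). At equal poly-A controls all medians lie above 0, and without _s_at and _x_at probe sets the ribosomal proteins have -0.04. The median level is 13.63 for the ribosomal proteins and 10.08 for the factors, so the curves are not matched for level.

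Promoters were examined for what the factors share beyond their function. RefSeq promoter sequences (GRCh38.p14), from 250 bases before to 50 bases after the transcription start, were given for 40 of the 49 genes; NOP58, NOLC1, RRP12, RRS1, RRP1B, BOP1, DDX18, POLR1E and POLR3G had no entry. CACGTG, the same on both strands, was present in 15 of the 40 (37.5%), compared with 7.43% of all 27305 promoters and 11.3% of 4914 promoters of genes at a level of 8 or more. Genes of this kind are known as MYC targets, so the share is not independent of how the list was composed. CACGTG lay within 50 bases of the start in 14 of these 15 promoters (93.3%). Among promoters that hold it, the share was 38.6% of all and 43.1% of those of genes at a level of 8 or more. The homeodomain core CAATTA, searched on both strands, was found in 2 promoters, WDR43 and WDR75 (5.0%), compared with 7.58% of all promoters and 4.15% of those of genes at a level of 8 or more. TATAAA, on both strands, was found in that of UTP20 alone (2.5%), compared with 12.0% of all and 4.88% of those at a level of 8 or more. Overlap between motifs was not removed. GC bases made up a median of 64.0% of these promoters and 58.3% of all promoters.

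The stretches from 50 bases before to 30 bases after the start are shown for 7 of them, to set the E-box beside the reading of the gene. WDR43, NOP14, NAT10, MRTO4 and GNL2 were lower by 0.1 or more, RRP9 was the highest and UTP20 lay at 0.03. Each sequence is written 5′ to 3′ on the strand of the gene, and capitals mark CACGTG.
WDR43, chr2:28894617-28894696, plus strand: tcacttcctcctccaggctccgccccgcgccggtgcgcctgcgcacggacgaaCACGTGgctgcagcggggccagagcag
NOP14, chr4:2963377-2963456, minus strand: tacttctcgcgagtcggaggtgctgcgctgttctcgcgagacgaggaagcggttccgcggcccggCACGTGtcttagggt
NAT10, chr11:34105579-34105658, plus strand: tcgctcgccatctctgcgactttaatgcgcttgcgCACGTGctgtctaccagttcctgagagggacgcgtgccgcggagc
MRTO4, chr1:19251755-19251834, plus strand: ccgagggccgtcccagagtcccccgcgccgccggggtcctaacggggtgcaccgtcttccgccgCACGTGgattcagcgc
GNL2, chr1:37595908-37595987, minus strand: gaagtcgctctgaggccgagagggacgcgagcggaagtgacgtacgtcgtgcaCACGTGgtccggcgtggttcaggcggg
RRP9, chr3:51941875-51941954, minus strand: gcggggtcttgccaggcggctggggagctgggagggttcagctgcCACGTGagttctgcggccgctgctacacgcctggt
UTP20, chr12:101280055-101280134, plus strand: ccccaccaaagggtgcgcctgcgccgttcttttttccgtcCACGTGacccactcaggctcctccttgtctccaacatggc

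Counting the first transcribed base as 1, the E-box began at 4 in WDR43 and GNL2, at 15 in MRTO4 and 16 in NOP14, and before the start in NAT10 (-15), RRP9 (-5) and UTP20 (-10). It did not separate lower from higher factors. The 14 analysed factors with CACGTG had a median of -0.10, with 10 lower and 4 higher, between -0.28 for NOP14 and 0.17 for RRP9. The 21 without it had a median of -0.07, with 15 lower and 6 higher, and included POLR1C at -0.31 and NOP16 at -0.25. A match describes the letters in this window and not binding of a factor.

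**Figure D4:**
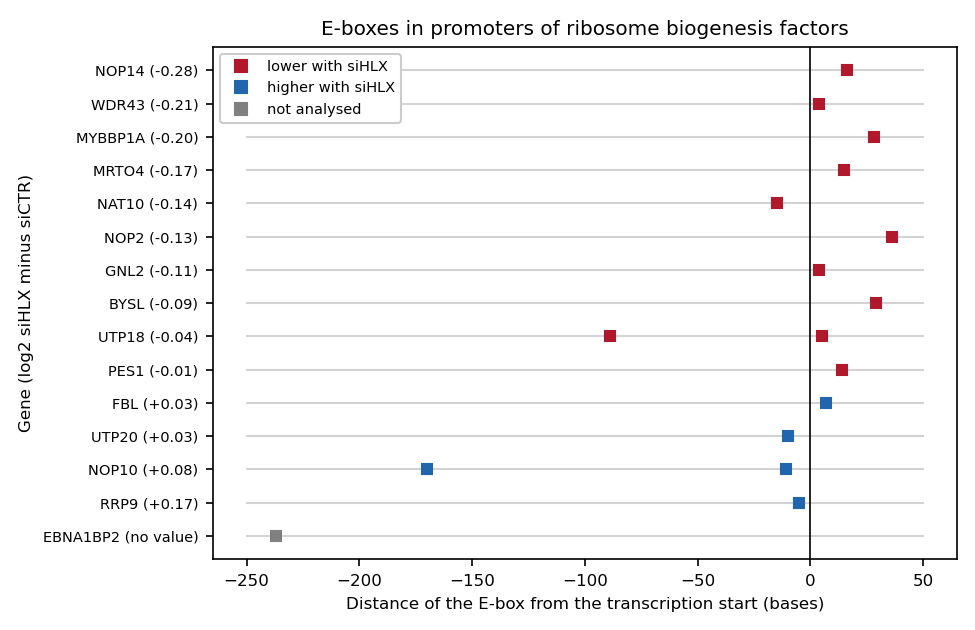
Position of each E-box (x axis, bases from the transcription start, line at 0) in the promoters of 15 ribosome biogenesis factors (y axis, with the log2 difference siHLX minus siCTR in parentheses); red marks genes lower and blue genes higher on the siHLX array taking the bulk of genes as reference, and grey EBNA1BP2, which was not analysed. In 14 of the 15 an E-box lies within 50 bases of the start, in genes from -0.28 to 0.17; scaled to equal poly-A controls, every red gene lies above 0.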

How the data were processed

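The deposited values were log2 intensities per probe set. Per the study's methods, the authors applied RMA background correction and quantile normalisation with limma and affy, for which no versions were given in the sources used here. The ratios to the sample mean that the methods also name were not applied in these values. Quantile normalisation gives both arrays the same distribution, which hides a change common to most transcripts. The platform annotation gave exactly 1 gene for 41091 of 54613 non-control probe sets, and 41037 of these were found in the RefSeq gene table (GRCh38.p14) by Entrez identifier. Probe sets with several genes named none.

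Groups were taken from the treatment in the sample labels. A gene was read by its brightest probe set and used when the mean of both arrays was at or above 4.865. Medians, counts and probe set agreement were computed with Python 3.11.15, numpy 2.4.6 and pandas 2.3.3. With 1 array per group no test was run. The steps were tested on simulated data. Genes were named if they were among the 2 highest or 2 lowest of each group of factors. So were genes with probe sets of equal sign and a mean of 0.1 or more in size. Values on both arrays were given for these, except NOLC1, NIP7, RRP1B, POLR1A, LYAR and DDX21, which were given by differences alone. Differences by probe set were given where these spanned 0.3 or more. Other genes are examples. The genes of the list, the further lists and the grouping by role were chosen with earlier results of these data known. The following were varied: centring on the median, a lowess correction for level (fraction 0.2), a repeated quantile normalisation, equal poly-A controls, averaging over probe sets, leaving out the suffixes _s_at and _x_at, the level threshold (absent, or at the 75th percentile), a step of 0.1 and other places for RRP9 and DDX18.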

Additional observations from a re-analysis of the deposited data

How the results depend on the processing

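Equal poly-A controls turned the direction of most medians, and leaving out _s_at and _x_at probe sets that of the ribosomal proteins. Equal controls gave medians of 0.21 for all factors, 0.22 for snoRNP, 0.25 for small-subunit, 0.16 for large-subunit and 0.23 for polymerase genes, 0.24 for genes of several steps, 0.24 for other biogenesis genes, 0.31 for ribosomal proteins and 0.28 for all genes. With them 1 factor was lower, 0 were lower by 0.2 or more and 21 higher by 0.2 or more. The scaling adds the same amount to every gene, and the median of all genes, 0.28, itself lay above 0.2. These counts are therefore no rise of the factors relative to all genes, whose shares were not computed at this scaling. NOP14 read 0.0092, WDR43 0.0792, UTP3 0.0592, NOP16 0.0392, POLR1E 0.0592 and MYBBP1A 0.0892, while POLR1C stayed below 0 at -0.0208. Without _s_at and _x_at probe sets the medians were -0.18 for polymerase genes, -0.20 for genes of several steps and -0.04 for ribosomal proteins. They were -0.085 for snoRNP, -0.01 for small-subunit and -0.09 for large-subunit genes. In this setting NOP16 had -0.03, NOP14 had no value, and 6 factors were lower by 0.2 or more. A step of 0.1 gave 18 factors lower and 3 higher. Over the other settings the median of all factors lay between -0.11 and -0.06 and that of large-subunit genes between -0.13 and -0.09. Of 164 values under alternatives, 136 moved by less than 0.05 or, for counts, by at most 1.5 times. Several settings could not have moved the factors. Both arrays had a median of 4.87 before centring, and no factor was lost at either other level threshold. The tally counts these settings too, so it overstates how little the values depend on the processing. With the mean of all probe sets, NOP16, POLR1C and POLR1E had -0.18, -0.24 and -0.05. Moving DDX18 changed nothing, because it was not analysed. No paired analysis was possible because each siRNA had 1 array. Without replicates these values cannot be set against the spread between cultures, and that spread limits every result here.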
